A study of Homo sapiens with 96 samples.

Results

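The comparison described here sets 3 libraries of K562 cells given the ligand 5PhIAA against 3 libraries given DMSO, across all genes. These are 6 of the 96 libraries of the series, chosen by the column names of 1 deposited count table of 12 libraries, which crosses the ligand with GSK343, an inhibitor of the histone methyltransferase EZH2. K562 is an established human line of chronic myeloid leukaemia origin that expresses erythroid genes. By the name of the table, all 12 libraries come from cells in which KDM2B carries the mini-auxin-inducible degron (mAID), so the DMSO cells carry the tag too, and DMSO is the vehicle control. The labels give the cell line and the treatment of each library. The dose, the time of treatment, whether the cells were 1 clone and whether the libraries came from separate cultures are not stated in those labels, so p-values measure only the spread between these libraries. The table holds no untagged cells, so an effect of loss of KDM2B and any other effect of the ligand cannot be told apart.

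PRC1.1 is a variant of the Polycomb repressive complex that is recruited to unmethylated CpG islands by the CxxC zinc finger of KDM2B. With BCOR or BCORL1, PCGF1 and the ubiquitin ligases RING1 and RNF2, it places ubiquitin on histone H2A, and EZH2 with its partners in PRC2 places methyl groups on histone H3 at many of the same genes. In a degron line, 5PhIAA bridges the tag to a plant F-box protein, and the tagged protein is ubiquitinated and degraded. The comparison asks which genes change in RNA level when the ligand is given to KDM2B-degron cells in which EZH2 was not inhibited.

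The DMSO libraries held 9261365 to 10176029 counts and the ligand libraries 8763237 to 9888708. Mitochondrial genes took 0.606 to 0.963% of the counts. The first principal component held 40.5% of the variance and separated the groups. The second held 21.1% and placed ligand library 1 at one end and ligand libraries 2 and 3 at the other, and results are given without it where a call or count rests on it. Library numbers are those of the table's column names. Of 9 markers of K562, 8 had counts in all 6 libraries, among them TFRC, the transferrin receptor, at 1402 ± 61.3 and 1393 ± 62.4 CPM (counts scaled to a common, TMM-adjusted library total, mean ± SD, n = 3) and the erythroid transcription factor GATA1 at 184 ± 12.3 and 173 ± 26.8 CPM. The embryonic globin gene HBE1 had 0 counts in 3 of the 6 libraries and at most 0.229 CPM in the others. Of 20 lymphoid marker genes, 8 to 14 had 0 counts in a library and the summed level was 7.59 to 11.6 CPM with DMSO and 6.99 to 10.3 with ligand, mostly from CD3D.

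Genes rose far more often than they fell. Of 13374 genes tested with edgeR, 341 were called (2.55%), 309 of them higher with ligand (2.31%) and 32 lower (0.239%), with an adjusted p under 0.05 and a log2 fold change beyond 0.585 in either direction, as in the labels' protocols. The median log2 fold change was 1.24 over the genes called higher and -0.79 over those called lower, against 0.00 over all genes. In every called gene the 3 ligand and the 3 DMSO libraries did not overlap in CPM, which held for 3263 of all genes tested (24.4%). The count was 276 without ligand library 1 (258 higher, 18 lower), 211 without DMSO library 1 and 216 without DMSO library 3. Since these are bulk samples, a change in the share of cells that express a gene and a change in RNA per cell cannot be told apart.

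**Figure D1:**
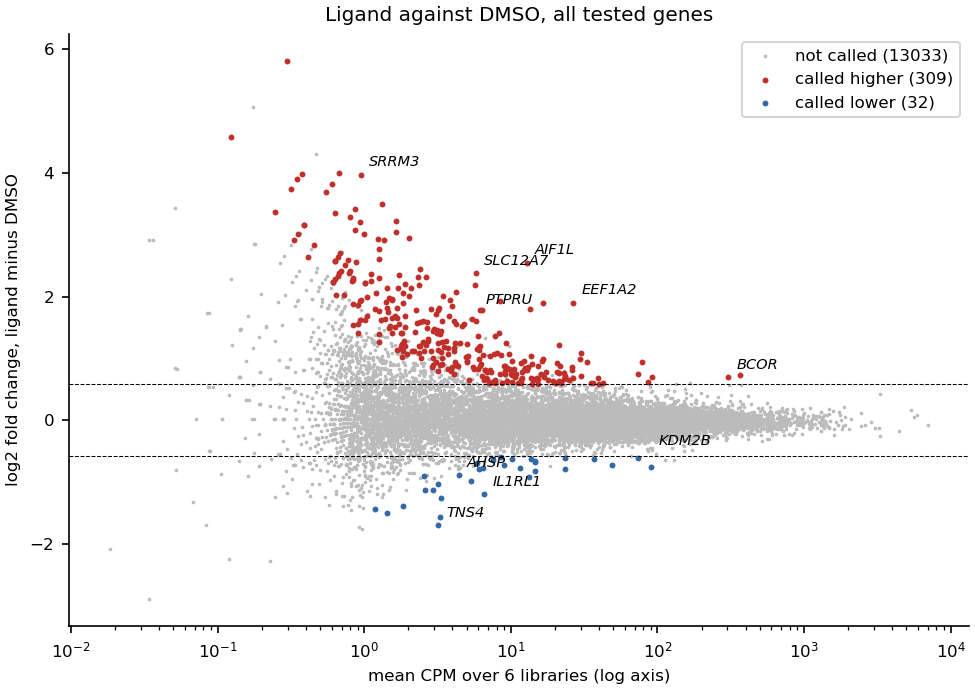
Log2 fold change of ligand against DMSO (y axis) against the mean CPM of the 6 libraries (x axis, log scale) for each of 13374 tested genes, with dashed lines at the fold threshold of 0.585. The 309 genes called higher lie mostly at low to middle levels and the 32 called lower are few; genes with 0 counts in the DMSO libraries are drawn at their fitted value.

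KDM2B RNA, read first because its protein carries the tag, stood at 91.1, 95.7 and 82.8 CPM with DMSO and at 74.6, 91 and 87.3 with ligand. The groups overlapped (log2 fold change -0.09, SE 0.10, edgeR adjusted p = 0.74), and the RNA does not show whether the protein was lost, which was not measured here. BCOR, the PRC1.1 scaffold gene, stood at 242, 238 and 220 CPM with DMSO and at 353, 388 and 391 with ligand. Its groups did not overlap and it rose 1.61-fold (log2 fold change 0.69, SE 0.07, edgeR adjusted p = 2.71e-05). BCOR was the 1 called gene among 10 PRC1.1 subunit genes, while 2.31% of all genes were called higher. BCORL1, its paralog, had a log2 fold change of 0.31 (adjusted p = 0.0464), under the fold threshold, and the others, PCGF1, RING1, RNF2, RYBP, YAF2, SKP1 and USP7, ran from -0.33 to 0.16 with adjusted p-values above 0.05. Of 13 PRC2, 12 canonical PRC1 and 16 other variant PRC1 subunit genes, 0 were called by edgeR and 0 by DESeq2, with 1, 0 and 4 at an unadjusted p under 0.05. By edgeR 2210 of all 13374 genes tested (16.5%) had an unadjusted p under 0.05. EZH2 stood at 273 ± 7.30 and 277 ± 5.22 CPM (log2 fold change 0.02, SE 0.09).

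Sequences upstream of the gene start are shown for 3 genes that rose and 2 that fell, because CpG is the sequence that the KDM2B zinc finger reads and its density differed widely among these genes. Each is the 250 bases before the RefSeq gene start (build GRCh38.p14), 5′ to 3′ on the strand of the gene, with every CG in capitals. The run of SLC12A7, a potassium-chloride cotransporter gene that rose, is chr5:1112064-1112313 on the minus strand and holds 28 CG. SRRM3, which encodes a neuronal splicing regulator and rose, has chr7:76201646-76201895 on the plus strand with 26. PTPRU, a receptor tyrosine phosphatase gene that rose, has chr1:29236272-29236521 on the plus strand with 36. IL1RL1, the interleukin 33 receptor gene, fell and has chr2:102337007-102337256 on the plus strand with 0. RNASE1, a secreted ribonuclease gene, fell and has chr14:20802845-20803094 on the minus strand with 5.
SLC12A7: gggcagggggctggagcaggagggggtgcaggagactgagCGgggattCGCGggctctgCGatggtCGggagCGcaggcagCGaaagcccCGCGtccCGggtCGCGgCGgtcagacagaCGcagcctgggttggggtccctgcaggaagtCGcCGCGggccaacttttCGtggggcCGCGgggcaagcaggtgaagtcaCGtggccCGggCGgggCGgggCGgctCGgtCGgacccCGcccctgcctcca
SRRM3: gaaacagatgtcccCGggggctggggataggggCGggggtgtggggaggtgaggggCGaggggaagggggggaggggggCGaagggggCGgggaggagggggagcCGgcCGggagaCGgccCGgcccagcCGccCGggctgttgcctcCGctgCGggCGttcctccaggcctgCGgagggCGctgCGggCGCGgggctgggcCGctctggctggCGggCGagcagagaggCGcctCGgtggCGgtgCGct
PTPRU: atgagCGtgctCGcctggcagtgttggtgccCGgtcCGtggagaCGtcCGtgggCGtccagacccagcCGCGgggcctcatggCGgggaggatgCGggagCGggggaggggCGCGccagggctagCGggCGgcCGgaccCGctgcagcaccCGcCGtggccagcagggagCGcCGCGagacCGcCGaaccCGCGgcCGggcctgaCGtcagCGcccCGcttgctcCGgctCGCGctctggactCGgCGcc
IL1RL1: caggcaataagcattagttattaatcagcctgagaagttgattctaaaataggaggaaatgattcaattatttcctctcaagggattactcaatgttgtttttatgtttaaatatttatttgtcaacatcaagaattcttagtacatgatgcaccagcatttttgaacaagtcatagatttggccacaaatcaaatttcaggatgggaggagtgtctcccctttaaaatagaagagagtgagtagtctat
RNASE1: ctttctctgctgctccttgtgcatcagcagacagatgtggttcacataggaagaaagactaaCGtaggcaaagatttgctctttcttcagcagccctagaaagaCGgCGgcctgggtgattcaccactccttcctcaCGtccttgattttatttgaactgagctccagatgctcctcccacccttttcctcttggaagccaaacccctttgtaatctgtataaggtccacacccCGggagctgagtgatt

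CpG density at the gene start differed between genes that rose and genes that fell. In windows of 300 bases, from 250 before to 50 after the start, read from hg38 at GENCODE 44 gene starts, the median was 28.5 CpG (quartiles 14.8 and 38.2) over 308 genes called higher. It was 7 (2.75 and 26.8) over the 32 called lower and 22 (11 and 31) over 13355 genes tested. A window with over 50% G and C and an observed to expected CpG ratio over 0.6 was found for 71.8% of the genes called higher, 40.6% of those called lower and 66.3% of all. The genes whose sequences are shown do not stand for all called genes. The windows at the GENCODE starts of BCOR, CDKN1A and ATF3, which rose, held 5, 2 and 4 CpG. The GENCODE start used here is the outer 5′ end of the whole gene record. It need not be the start in use in these cells, so a low count does not show a promoter poor in CpG. Of the 2492 genes with 35 or more CpG, which are 18.7% of all, 4.25% were called higher. Of the 1626 with 0 to 4 CpG, 1.72% were called higher and 0.615% lower. Genes with few CpG also had lower counts, with a median of 6.46 CPM in DMSO against 33.9 for those with 35 or more. Among genes of 1 to 3 CPM in DMSO the median was 32 CpG over the 81 called higher and 14 over the other 1573, and among those of 10 to 30 CPM it was 30 over 39 and 23 over 2429. Among those of 30 CPM or more it was 22 over 9 and 24 over 6297. These are descriptions with no test, CG stands once in this search because it reads the same on both strands, and 98.8% of all windows held at least 1. The RefSeq promoter table matched 9753 of the tested genes by symbol (72.9%), so a check of CpG over gene sets on that table is void because fewer than 80% have a value.

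**Figure D2:**
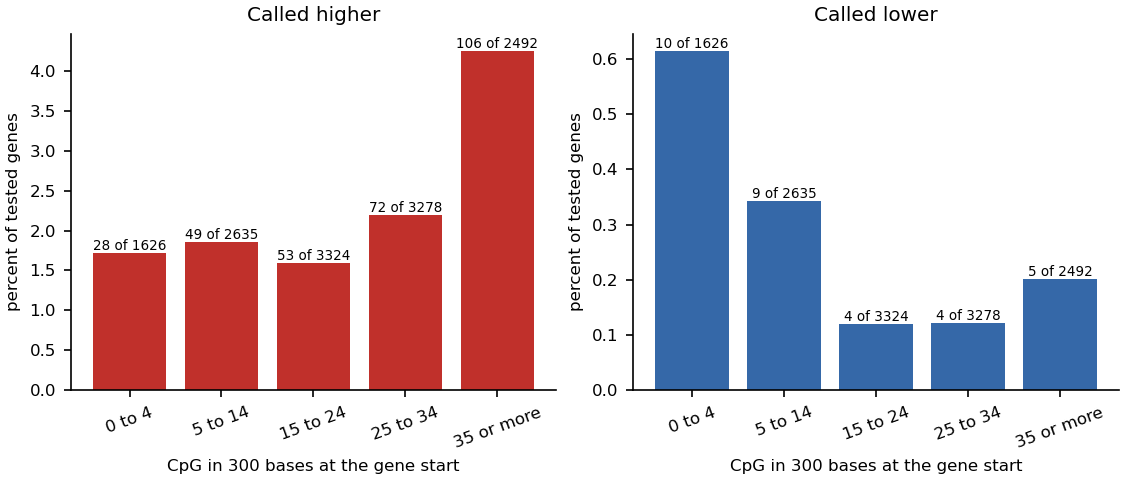
Percent of tested genes called higher (left) and called lower (right) with ligand, by the number of CpG in the 300 bases at the gene start; the counts stand on the bars, and the y axes differ. The share called higher was 4.25% in the class with the most CpG and 1.59 to 2.20% in the others, while the share called lower was 0.615% in the class with the fewest.

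The genes that rose were mostly weakly transcribed with DMSO. Their median level was 2.04 CPM with DMSO (quartiles 0.634 and 6.35) against 26.3 over all genes, and 33.7% of them stood under 1 CPM. The share called higher was 9.63% of genes under 1 CPM, 4.10% of those of 3 to 10 CPM and 0.143% of those of 30 CPM or more. The median SE of the log2 fold change was 0.51, 0.20 and 0.09 in these classes, so the test had less precision where more genes were called. The count filter ran over all 12 libraries, so genes under 1 CPM with DMSO could enter the test through higher levels in other groups. Of the 1080 tested there 0 were called lower, and the high share called higher may partly follow from the filter. Of the genes called higher 297 of 309 were protein-coding (96.1%) against 83.5% of all tested, and 7 were long non-coding RNA genes. Of the 32 called lower 24 were protein-coding and 7 long non-coding. The genes called higher lay on 23 chromosomes, from 1.08% of the genes tested on chromosome X to 3.21% on chromosome 5.

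AIF1L, which encodes an actin-binding protein, stood at 4.38, 3.69 and 3.08 CPM with DMSO and at 21.1, 23.9 and 20.7 with ligand. All 3 ligand libraries lay above all DMSO libraries, a 5.85-fold rise (log2 fold change 2.55, SE 0.14, edgeR adjusted p = 2.25e-08), the smallest adjusted p of the comparison. AIF1L lies on chromosome 9 from 131096476 to 131123152 (hg38, GENCODE 44). SLC12A7, whose upstream run is rich in CG, stood at 1.69, 2.00 and 1.87 CPM with DMSO and at 9.51, 8.00 and 11.4 with ligand. It rose 5.18-fold with no overlap (adjusted p = 1.76e-06) and lies on chromosome 5 from 1050384 to 1112063. PTPRU stood at 2.29, 2.21 and 1.65 CPM with DMSO and at 9.86, 9.33 and 8.97 with ligand. It rose 4.53-fold with no overlap (adjusted p = 2.64e-06) and lies on chromosome 1 from 29236516 to 29326813.

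The first of the 25 rises by size was DNAJC22, a J-domain protein gene, at 0.697, 0.211 and 0 CPM with DMSO and 2.98, 2.77 and 3.30 with ligand (log2 fold change 3.22, SE 0.49, edgeR adjusted p = 0.00112). JAM3, a junctional adhesion molecule gene, rose by 2.93 on the log2 scale and BCAM, which encodes the Lutheran blood group glycoprotein, by 2.77. The membrane transporter gene SLC4A11 rose by 2.61, the acid-sensing channel gene ASIC1 by 2.30 and the synaptic zinc transporter gene SLC30A3 by 2.14. EMILIN2, an elastic fibre glycoprotein gene, stood at 0.697, 0.738 and 0.771 CPM with DMSO and at 3.21, 2.77 and 6.19 with ligand. Its highest library was ligand library 3 and its log2 fold change was 2.45 (SE 0.33, adjusted p = 0.000419). Among enzyme genes, CTSV, which encodes a cathepsin, rose by 2.21, the heparanase gene HPSE by 2.05 and the fatty acid elongase gene ELOVL3 by 2.21. RALGPS2, an exchange factor gene for Ral (2.07), GNB5, a G protein beta subunit gene (2.01), CARMIL2, a regulator of actin capping (2.14), and PPM1L, a protein phosphatase gene (2.01), also rose. C1QL4, a complement C1q-like gene, rose by 2.25 on the log2 scale. Among regulators of transcription, FOXO1, a forkhead factor downstream of insulin signalling, rose by 2.22 and SMARCD3, a subunit gene of the SWI/SNF remodelling complex, by 2.05. All 25 named rises had groups that did not overlap, as their rule required. Of the 25, DNAJC22, JAM3, HES2, BCAM, DLL4, FOXO1 and INSR were among those with a mean under 1 CPM with DMSO. Such genes could pass the count filter and the level set by the rule through the groups where they are high. Their rises can be too large and are no support apart from the call. C1QL4, ELOVL3, SLC30A3, SMARCD3 and BMP8B, a bone morphogenetic protein gene, were not called when 1 or more of the 6 libraries was left out.

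**Figure D3:**
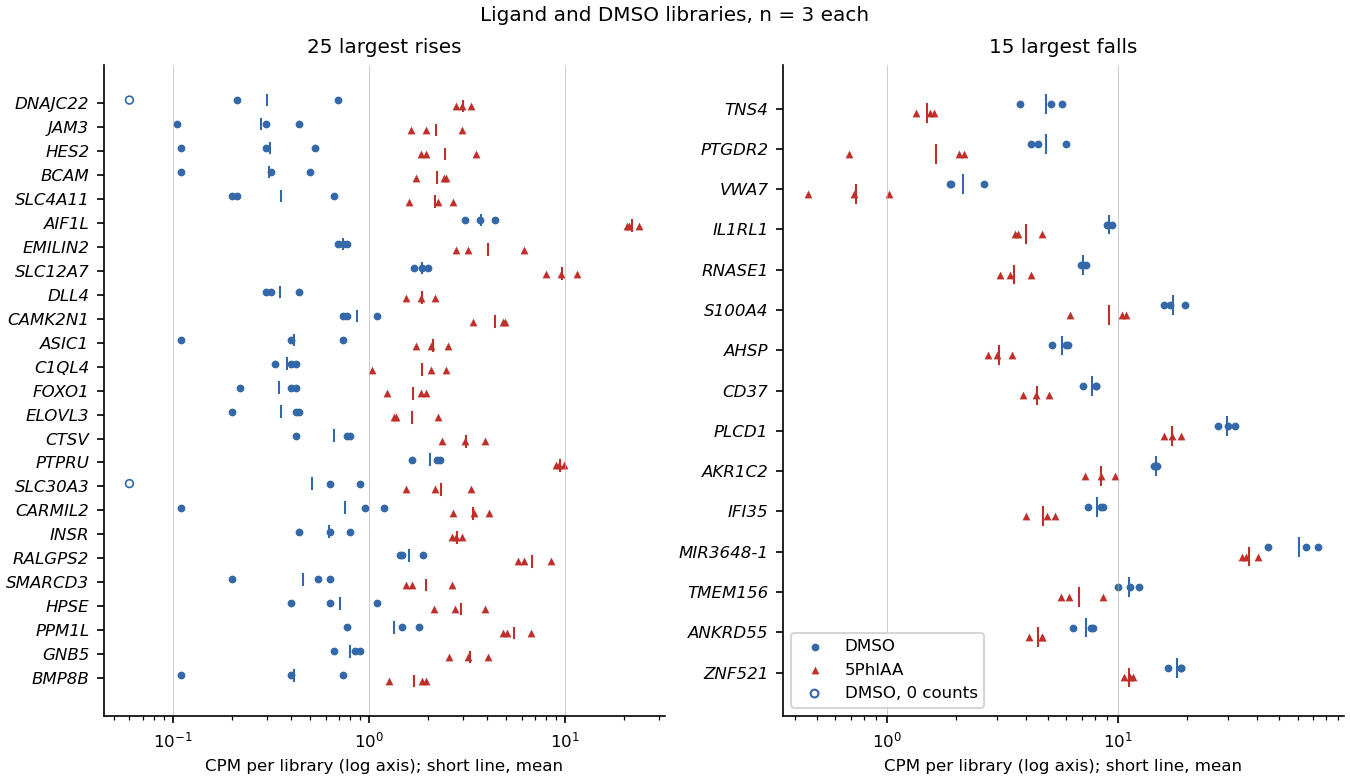
CPM of each library (x axis, log scale) for the 25 genes with the largest rise and the 15 with the largest fall by the naming rule; blue circles are DMSO, red triangles are ligand, short lines are means of 3 libraries, and open circles at the left edge are libraries with 0 counts. The AIF1L libraries run from 3.08 to 4.38 CPM with DMSO and from 20.7 to 23.9 with ligand, and no named gene has overlapping groups.

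Of 23 genes for growth factor ligands that were tested, 6 rose and 0 fell (median log2 fold change 0.50), while 2.31% of all genes rose and their median was 0.00. The share of all genes called higher was 9.63% under 1 CPM with DMSO and 0.143% at 30 CPM or more. The 2.31% given here and beside the lists below is not matched for level. PDGFA, the A chain of platelet-derived growth factor, stood at 5.58, 6.86 and 5.62 CPM with DMSO and at 19, 23.1 and 20.6 with ligand. The groups did not overlap and the rise was 1.80 on the log2 scale (SE 0.14, edgeR adjusted p = 1.76e-06). Also called were KITLG, the ligand of KIT (2.27), the ephrin ligand gene EFNB2 (1.82), HBEGF, a ligand of the EGF receptor (1.2), SEMA3F, a secreted semaphorin gene (1.17), and MDK, the gene of midkine (0.75). Without DMSO library 1 or DMSO library 3 the count was 3, and DESeq2 called 5 of the 6, without HBEGF.

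Of 19 receptor tyrosine kinase genes tested, 6 rose, against 2.31% of all genes, and 0 fell. The median log2 fold change was 0.20, and 0.09 without DMSO library 3, 0.10 without ligand library 2 and 0.32 without ligand library 1. INSR, the insulin receptor gene, stood at 0.797, 0.633 and 0.441 CPM with DMSO and 2.64, 2.77 and 2.99 with ligand. The groups lay apart (log2 fold change 2.14, SE 0.32, edgeR adjusted p = 0.000927). INSR stood under 1 CPM with DMSO, where 9.63% of all genes tested were called higher, and could pass the count filter through other groups. IGF1R, the receptor gene of its growth factor relative, stood at 17.1, 18.6 and 15.8 CPM with DMSO and at 27.3, 29.1 and 31.2 with ligand (0.77, adjusted p = 0.000419). FGFR1, a fibroblast growth factor receptor gene (2.33), ERBB3, a neuregulin receptor gene (1.45), EPHB6, an ephrin receptor gene (1.25), and MERTK, a receptor of cell clearance (1.04), rose as well. KIT, the stem cell factor receptor gene, which was placed in the list of stem and progenitor genes, rose by 0.93 and was 1 of 16 tested there. PTPRU, of the receptor tyrosine phosphatase family, was in none of the lists.

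Of 21 Notch pathway genes tested, 5 rose, against 2.31% of all genes, and 0 fell (median 0.32). They were the receptor gene NOTCH2, the ligand genes DLL4 and JAG1 and the genes of the transcriptional repressors HES2 and HEYL. NOTCH2 stood at 2.09, 0.949 and 1.65 CPM with DMSO and at 6.42, 6.56 and 5.26 with ligand (log2 fold change 1.94, SE 0.23, edgeR adjusted p = 9.74e-05). JAG1 ran from 1.27 to 2.19 CPM with DMSO and from 3.2 to 6.88 with ligand (1.44), and DLL4 rose by 2.37. HES2 stood at 0.299, 0.527 and 0.110 CPM with DMSO and at 1.83, 1.95 and 3.51 with ligand (2.91, SE 0.46, adjusted p = 0.00154), with ligand library 3 the highest. HES2 and DLL4 had means under 1 CPM with DMSO, where 9.63% of all genes tested were called higher. At 1 to 3 CPM, the level of NOTCH2 and JAG1, it was 4.88%. NRARP, a feedback gene of the pathway, had a log2 fold change of 0.39 (adjusted p = 0.0238), under the fold threshold.

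Of 20 neuronal splicing and synaptic genes tested, 5 rose, against 2.31% of all genes, and 0 fell (median 0.28). SRRM3 had 3 counts over the DMSO libraries and 51 over the ligand libraries, a ratio of 17.4 (95% counting interval 5.62 to 87, exact). SRRM3 passed the count filter only through groups other than DMSO, so this ratio is no support apart from the call. Of all genes tested that stood under 1 CPM with DMSO, 9.63% were called higher. The SRRM3 level was 0.0996, 0.211 and 0 CPM with DMSO and 1.15, 2.26 and 1.96 with ligand (edgeR adjusted p = 0.000543). EEF1A2, a translation elongation factor gene of neurons and muscle, stood at 11.5, 11 and 11.1 CPM with DMSO and at 37.6, 44.5 and 43.2 with ligand (log2 fold change 1.90, SE 0.11, adjusted p = 5.78e-08). CAMK2N1, an inhibitor gene of CaM kinase II (2.31), NXPH4, a neurexophilin gene (1.81), and UNC13A, a gene of synaptic vesicle priming (1.79), rose too. The count was 3 without DMSO library 1 or ligand library 2. Of 11 tubulin genes, TUBB2B (1.59) and TUBB4A (0.83), both isotypes of neurons, rose, and the count was 1 without DMSO library 1 or 2 or ligand library 1 or 2.

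Adhesion and matrix genes gave fewer calls, and 2.31% of all genes were called higher. PCDH1, a protocadherin gene, stood at 7.37, 7.59 and 6.06 CPM with DMSO and at 24.4, 28.1 and 25.8 with ligand (log2 fold change 1.89, SE 0.15, edgeR adjusted p = 2.09e-06). It was the 1 called gene of 10 cadherin and protocadherin genes, whose median was 0.61, and the count was 2 without ligand library 1. COL18A1, a basement membrane collagen gene, stood at 21, 18.6 and 18.5 CPM with DMSO and at 35, 44.5 and 44 with ligand (1.09, SE 0.11, adjusted p = 3.81e-05). With EMILIN2 it made 2 of 21 matrix genes. Of 19 semaphorin, plexin and axon guidance genes SEMA4F (0.90) and SEMA6B (1.31) rose, with 0 to 1 called when 1 of the 6 libraries was left out, and DESeq2 called UNC5B besides. Of 7 integrin genes 0 were called by edgeR or DESeq2, with 3 at an unadjusted p under 0.05, against 16.5% of all genes.

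Other signalling lists held 2 to 4 called genes each, while 2.31% of all genes were called higher and 0.239% lower. FZD7, a Wnt receptor gene (1.0), TCF7, a Wnt-responsive transcription factor gene (0.98), and NKD1, a Wnt inhibitor gene, were called among 19 Wnt pathway genes. TCF7 stood at 11.9, 10.8 and 10.8 CPM with DMSO and at 19.8, 23.7 and 22.5 with ligand, and NKD1 had 2 counts against 18 (ratio 9.19, interval 2.20 to 81.7). NKD1 passed the count filter only through groups other than DMSO. The Wnt count was 1 without DMSO library 1, DMSO library 2 or ligand library 3, and DESeq2 called TCF7 alone of the 3. BMP8B (1.99) and SMAD7, an inhibitor of TGF-beta signalling (0.90), rose among 25 TGF-beta and BMP pathway genes, with 0 to 1 called when 1 library was left out, and DESeq2 called BMP8B alone. Of 28 cytokine receptor and SOCS genes 3 rose and 1 fell. LIFR, the leukaemia inhibitory factor receptor gene, stood at 14.1, 15.2 and 13 CPM with DMSO and at 32.4, 26 and 22.2 with ligand (0.93, SE 0.14, edgeR adjusted p = 0.00112). IL4R, the interleukin 4 receptor gene (0.86), and SOCS3, a feedback inhibitor of cytokine signalling (0.59), rose as well.

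Among transcription factor lists, FOXD1, a forkhead gene, had 2 counts with DMSO and 29 with ligand (ratio 14.8, interval 3.75 to 128). It was the 1 called of 20 forkhead, T-box, SOX, GATA and TFAP2 genes, whose median was 0.36 (0.22 without ligand library 3), and the count was 2 without ligand library 1. The share of all genes called higher was 2.31%. The nuclear receptor genes NR2F1, with 2 and 20 counts (ratio 10.2, interval 2.48 to 90.1), VDR, the vitamin D receptor gene (0.71), and ESR2, an oestrogen receptor gene (0.75), rose among 23, and the count was 0 without DMSO library 1 and 1 without any of the others. DESeq2 called VDR alone of the 3. FOXD1 and NR2F1 passed the count filter only through groups other than DMSO. Of 12 tested HOX genes 0 were called by edgeR or DESeq2, with 2 at an unadjusted p under 0.05, against 16.5% of all genes.

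The cell-cycle inhibitor gene CDKN1A stood at 3.59, 6.43 and 3.64 CPM with DMSO and at 12.3, 11.5 and 12.5 with ligand. The groups did not overlap and it rose by 1.41 on the log2 scale (SE 0.19, edgeR adjusted p = 0.000389), the 1 called of 5 such genes. Beside the counts of this paragraph, 2.31% of all genes were called higher. Of 26 proliferation genes, the cyclin D1 gene CCND1 rose (0.59, adjusted p = 0.0023) at the edge of the fold threshold and was not called without DMSO library 3. The replication licensing gene MCM5 was at 171, 179 and 162 CPM with DMSO and at 122, 147 and 142 with ligand (-0.32, adjusted p = 0.0361), under the fold threshold. Of 35 replication-dependent histone genes 0 were called by edgeR, with 14 at an unadjusted p under 0.05, a median of -0.21 (-0.14 without ligand library 1) and 4 above 0, and 2, H4C1 and H4C9, were called by DESeq2. Among genes for antigen presentation, HLA-C (1.68), the peptide transporter gene TAP1 (1.23) and the immunoproteasome gene PSMB9 (2.23), were called, 3 of 12, and 1 was called without DMSO library 3 or ligand library 2, and DESeq2 did not call PSMB9. HLA-C reads could be shared with near-identical HLA genes. Of 13 interferon response genes 0 were called by edgeR or DESeq2, with 3 at an unadjusted p under 0.05. Over all genes tested 16.5% had an unadjusted p under 0.05. Of 21 immediate-early genes, FOSL2 (0.65), IER5L (1.07) and ATF3 (0.83) rose, and 0 were called without DMSO library 1 or ligand library 3, and DESeq2 did not call IER5L.

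**Figure D4:**
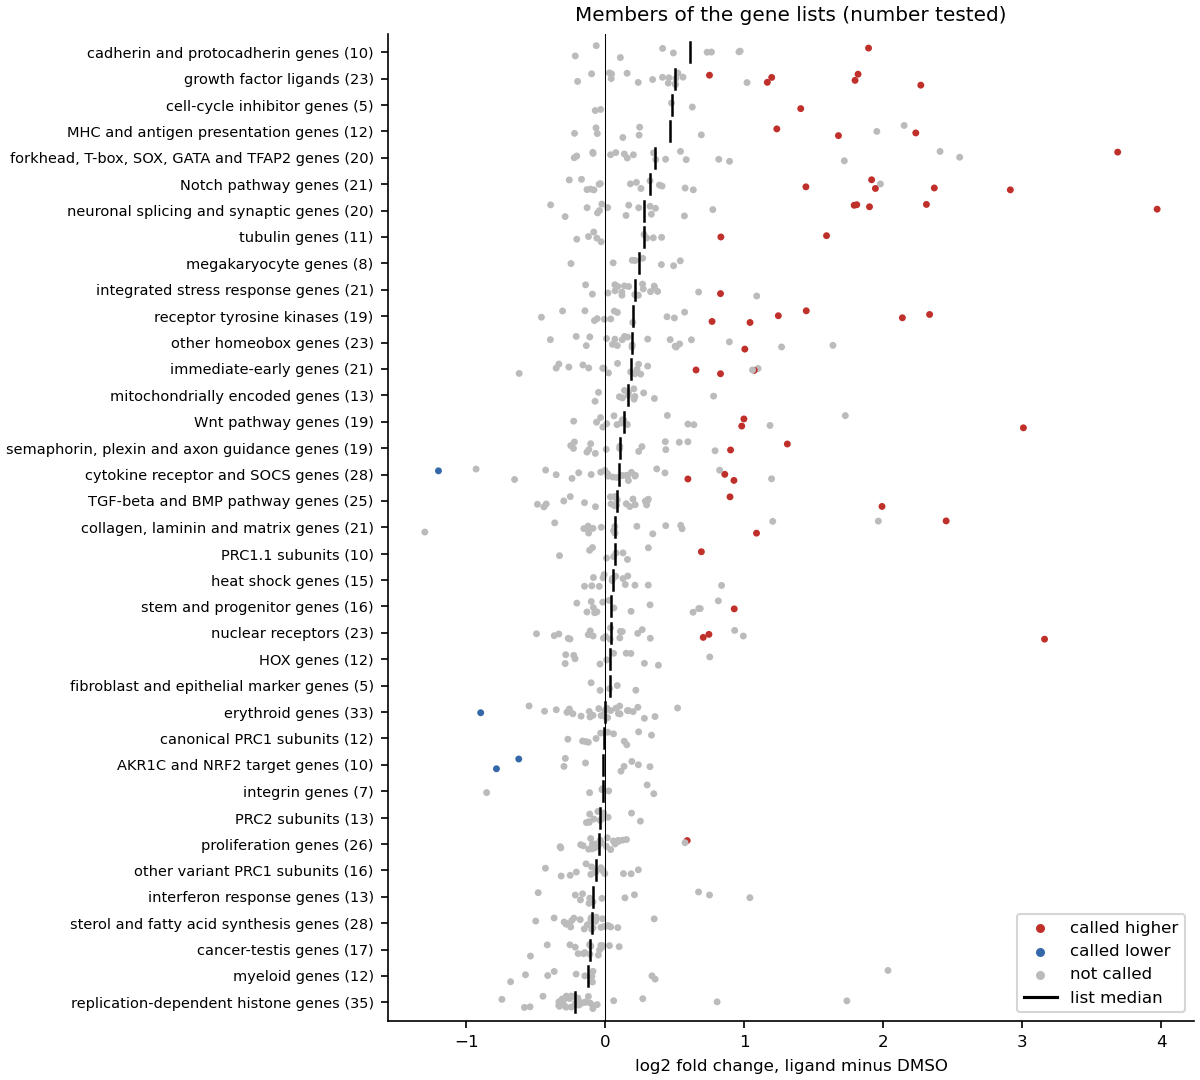
Log2 fold change of ligand against DMSO (x axis) of each tested member of the gene lists with 5 or more tested members, ordered by the list median (black bar); red is called higher, blue called lower, grey not called. Calls among growth factor ligands (6 of 23), receptor tyrosine kinases (6 of 19), Notch pathway genes (5 of 21) and neuronal genes (5 of 20) lie to the right, and the list median lies near 0 for most lists.

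Over all 40 lists 643 distinct genes were tested, 52 were called higher (8.09%) and 4 lower. The lists were drawn up with results of these data known, so this share is a description, beside 2.31% of all genes. At least 1 rise was found in 21 lists and at least 1 fall in 3, and 17 held no call. Lists with no call by edgeR or DESeq2 included 28 sterol and fatty acid synthesis genes (median log2 fold change -0.10, 6 at an unadjusted p under 0.05), 17 cancer-testis genes (-0.11, 3 such), 15 heat shock genes (5 such) and 13 mitochondrially encoded genes (1 such). Among lineage lists, 8 megakaryocyte genes had a median of 0.24 (2 such) and 12 myeloid genes were also without a call (4 such). The same held for 3 aryl hydrocarbon receptor targets (1 such) and 4 drug efflux transporter genes (0 such). For comparison, 16.5% of all genes tested had an unadjusted p under 0.05. The summed level of 29 myeloid genes was 317 to 334 CPM with DMSO and 275 to 311 with ligand. The groups did not overlap, which held for 24.4% of all single genes tested. Members went both ways, with LGALS1 at 83.85 and 64.98 CPM, CTSS at 28.63 and 19.24 and FCGR2A at 45.93 and 58.89 (means, DMSO and ligand). The part of this sum in the falls was not tested. The summed level of 18 fibroblast and epithelial markers was 444 to 479 and 440 to 475 CPM, mostly from keratin genes, with 9 or 10 members at 0 counts.

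Falls were fewer and smaller, and 10 of the 32 genes fell by more than 1 on the log2 scale. IL1RL1, which has 0 CG in its upstream run, stood at 8.97, 9.07 and 9.47 CPM with DMSO and at 4.70, 3.69 and 3.61 with ligand. The groups lay well apart (log2 fold change -1.2, SE 0.17, edgeR adjusted p = 0.000757), and the gene lies on chromosome 2 from 102311502 to 102352037. The RefSeq start used for its upstream run lies inside this interval, and the window at the GENCODE start of IL1RL1 held 1 CpG. TNS4, a focal adhesion protein gene, had the largest fall of the 15 (-1.70, SE 0.26, adjusted p = 0.00131), from 3.79, 5.17 and 5.73 CPM to 1.60, 1.54 and 1.34. PTGDR2, a prostaglandin D2 receptor gene, fell by 1.56, with ligand library 1 the lowest at 0.688 CPM, and VWA7 fell by 1.51. RNASE1 stood at 7.07, 7.28 and 6.94 CPM with DMSO and at 3.09, 4.20 and 3.40 with ligand (-0.99, adjusted p = 0.00696). S100A4, a calcium-binding protein gene, fell by 0.92 with ligand library 1 lowest at 6.19 CPM, against 10.9 and 10.4 in the others.

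AHSP, the chaperone gene of free alpha globin, stood at 5.18, 6.12 and 5.95 CPM with DMSO and at 2.75, 3.49 and 2.99 with ligand (-0.90, SE 0.19, edgeR adjusted p = 0.0147). It was the 1 called of 33 erythroid genes, whose median was -0.00, while 0.239% of all genes were called lower. Without DMSO library 2, 1 erythroid gene was called higher. The AHSP call was lost without DMSO library 2 or 3 or ligand library 1 or 3. Other erythroid genes did not pass both thresholds, among them HBA2, an alpha globin gene (0.52, adjusted p = 0.0357), and GYPE (-0.44, adjusted p = 0.0373), and both have near-identical relatives that can share reads. AKR1C2 and AKR1C1, aldo-keto reductase genes, fell by 0.78 and 0.62. They are near-identical and their split is uncertain, and they were the 2 called of 10 AKR1C and NRF2 target genes. The remaining named falls were CD37, a tetraspanin gene (-0.79), PLCD1, a phospholipase C gene (-0.79), IFI35, an interferon-induced gene (-0.77), MIR3648-1 (-0.73), TMEM156 (-0.72), ANKRD55 (-0.70) and ZNF521, a zinc finger gene of blood progenitors (-0.68). MIR3648-1 lies within a ribosomal RNA repeat with many copies, and its reads cannot be assigned to 1 copy. Its fall was not called with RLE factors, and ANKRD55 was not called with DESeq2. CD37, IFI35 and ANKRD55 lost the call when any 1 of the 6 libraries was left out, and VWA7, PLCD1, TMEM156, MIR3648-1 and PTGDR2 lost it when certain ones were.

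The same ligand effect could be read in 6 other libraries of the table, in which both groups also received GSK343. There 260 genes were called (1.94%), 242 higher (1.81%) and 18 lower (0.135%). The count was 147 without GSK343 library 2, 351 without GSK343 library 3, and 251 without GSK343 library 1, which held 4268383 counts. It was 166, 171 and 150 without library 1, 2 or 3 of ligand with GSK343. GSK343 library 3 lay closer to the libraries of ligand with GSK343 than to the other GSK343 libraries. Of the 309 genes that rose without the inhibitor, 163 were called higher with it, which is 52.8% of the first list and 67.4% of the second, and 6 of the 32 falls were called lower. AIF1L stood at 14.1 CPM with GSK343 and at 51.8 with both (log2 fold change 1.86, edgeR adjusted p = 1.06e-07), against 2.55 without the inhibitor. SLC12A7 stood at 4.04 and 17.2 CPM (2.09 against 2.37) and PTPRU at 3.98 and 13.2 (1.71 against 2.18). BCOR had a log2 fold change of 0.40 with the inhibitor (adjusted p = 0.00337) against 0.69 without, under the fold threshold, and IL1RL1 of -1.16 against -1.2. Of the 25 named rises 21 were called higher with GSK343 and all 25 had a positive fold change, and of the 15 named falls 3 were called lower.

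No gene passed the test of the difference between the ligand effects with and without GSK343. It called 0 genes by edgeR, with 497 at an unadjusted p under 0.05, a smallest adjusted p of 0.404, and 0 by DESeq2. With no filter on low counts it called 4, namely CSNK2B, RPS15A, MIR3648-1 and an unnamed gene. For AIF1L the difference was -0.69 (SE 0.18, edgeR adjusted p = 0.982), for BCOR -0.29 (SE 0.10) and for PDGFA -0.65 (SE 0.19). A p that misses the threshold does not show that the effects were equal.

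In EV cells, a line of another table whose name the labels do not spell out, 345 of 14901 genes were called with ligand against DMSO (2.32%), 322 higher (2.16%) and 23 lower (0.154%). The count was 209 without EV DMSO library 1, 196 without EV ligand library 3 and 308 without EV ligand library 1, which held 2346542 counts with 8.06% from mitochondrial genes. Of the 309 rises of the present comparison 192 were called higher there (62.1% of these and 63.4% of the EV rises tested in both), and of the 32 falls 7 were called lower. AIF1L rose by 2.20 on the log2 scale in EV cells, SLC12A7 by 1.77 and PTPRU by 1.35. The test of the difference between the effects called 0 genes by edgeR, with 409 at an unadjusted p under 0.05, and DESeq2 was not run on it. With no filter it called TIMP4 alone, named after its values were seen.

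Another set of libraries gives the ligand effect at a stated time, 72 h against untreated cells of the KDM2B table. There 1505 genes were called (10.1%), 974 higher (6.54%) and 531 lower (3.56%). Of the 309 rises 240 were called higher at 72 h, which is 77.7% of these and 27.6% of the 871 rises at 72 h that were tested here. Those 871 genes had a median log2 fold change of 0.59 in the present comparison, with 91.3% above 0, against 1.04 at 72 h and 0.00 over all genes here. They were chosen by their calls at 72 h, which favours larger values there, so these medians do not compare the sizes of the effects. The 309 rises, chosen by their calls here, had a median of 1.24 here and 1.2 at 72 h. The 441 genes that fell at 72 h and were tested here had a median of -0.10, with 38.5% above 0, and 13 were called lower. In all 4 ligand comparisons, which use separate libraries, 123 genes were called higher. Across 13374 genes the log2 fold changes of the present comparison had a Pearson r of 0.572 with those under GSK343, 0.608 with EV cells and 0.54 with 72 h (Spearman 0.425, 0.571 and 0.356). These correlations are across genes, which are not independent replicates, and 72 h, EV and this table come from separate experiments.

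**Figure D5:**
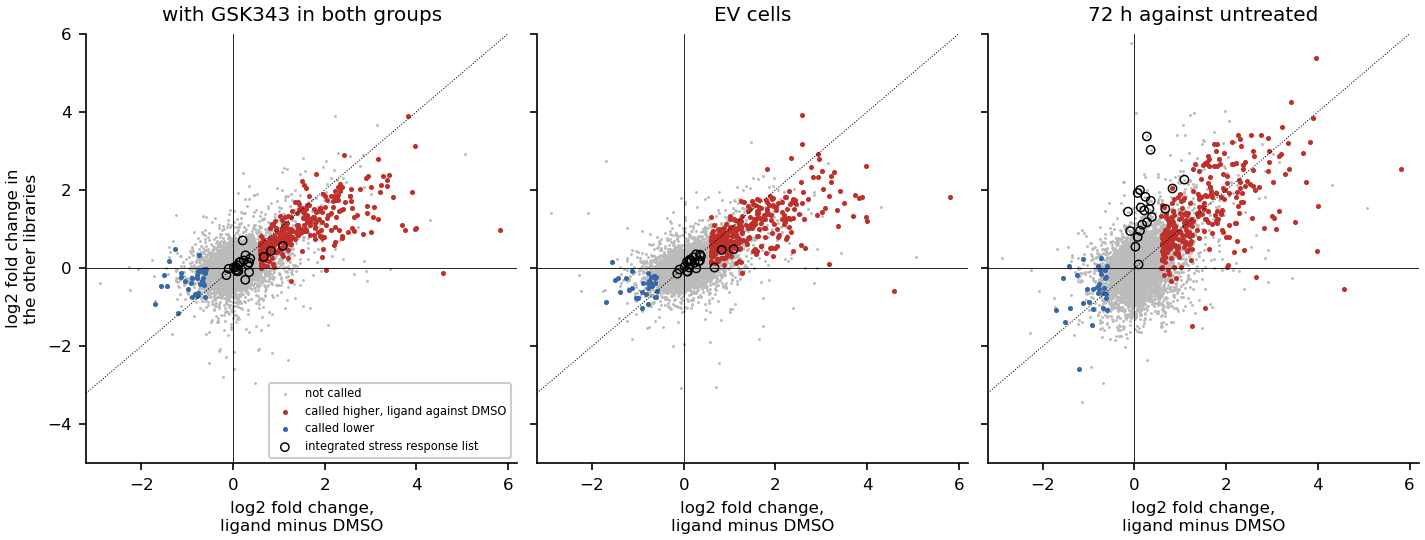
Log2 fold change of ligand against DMSO without GSK343 (x axis) against the ligand effect in 3 sets of other libraries (y axes), each point 1 tested gene; red and blue are the 309 and 32 genes called here, open circles the integrated stress response list, and the dotted line marks equal values. The genes called higher lie above 0 in most cases in all panels, and the open circles lie between -0.14 and 1.09 on the x axis and reach 3.37 on the y axis at 72 h.

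The effect at 72 h differed from the present comparison for 378 genes (2.54%), 188 more positive and 190 more negative at 72 h. The count was 247 without DMSO library 1, 251 without DMSO library 2, 242 without untreated library 1 and 208 without 72 h library 3. In the integrated stress response, ATF4 activates genes of amino acid supply and stress. Of 21 tested genes of that list 1 was called here, ATF3, with a median log2 fold change of 0.21 (0.13 without ligand library 2) and 19 above 0. At 72 h 19 were called higher, with a median of 1.52, and the difference was called for 15. Of all genes, 2.31% were called higher here and 6.54% at 72 h. ATF3 was not called here without DMSO library 1, ligand library 2 or ligand library 3. DDIT4, a stress-induced inhibitor of mTORC1, stood at 54.7, 63.9 and 59.5 CPM with DMSO and at 67.2, 80.1 and 79.9 with ligand (log2 fold change 0.35, SE 0.11, edgeR adjusted p = 0.106). At 72 h its log2 fold change was 3.03 and the difference 2.68. CHAC1, a glutathione-degrading enzyme gene, had a log2 fold change of 0.27 here, with overlapping groups, and 3.37 at 72 h. The time and the dose of the present comparison are not given, and table, control and time of treatment cannot be told apart.

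Genes named here also differed from 72 h in either direction. PTPRU rose by 2.18 here and had a log2 fold change of 0.40 at 72 h (difference -1.77, edgeR adjusted p = 0.00227). EEF1A2 rose by 1.90 here and by 0.98 at 72 h (difference -0.91, adjusted p = 0.000173). AIF1L rose by 2.55 here and by 3.40 at 72 h (difference 0.86, adjusted p = 0.0406), and SOCS3 by 0.59 and 1.61 (1.02, adjusted p = 0.000245). IL1RL1 fell by 1.2 here and by 2.59 at 72 h (difference -1.39, adjusted p = 0.0303). SLC12A7, at 2.37 here and 2.53 at 72 h, and BCOR, at 0.69 and 0.84, had differences that did not pass the test (adjusted p = 0.828 and 0.373).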

How the data were processed

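Total RNA was made into libraries with a ribosomal RNA depletion kit and sequenced on a NextSeq500, per the labels' protocols. Reads were mapped to hg38 with STAR in 2-pass mode and tested with DESeq2 by the submitters, per the labels' protocols, which name single-end and paired-end reads. The authors deposited raw counts per Ensembl gene. The counting program, its strand setting and the annotation release are not given in the labels or headers, so antisense and overlapping genes are uncertain. Every column of the 12 libraries was placed in its group by the column's name.

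Counts were tested with edgeR 4.0.16 (R 4.3.3; limma 3.58.1) by quasi-likelihood, with TMM factors (0.967 to 1.032) and filterByExpr, in 1 fit of the 12 libraries of the table (common biological coefficient of variation 0.0945), and p-values were adjusted by Benjamini-Hochberg over all 13374 genes. EV and 72 h effects came from a joint fit of 24 libraries (14901 genes). Calls required an adjusted p under 0.05 and a log2 fold change beyond 0.585 in either direction. CPM are counts scaled to a common library total after TMM adjustment, and the fitted fold changes of genes near 0 counts depend on the prior count. The procedure was tested on simulated counts. The changed genes of the simulation were drawn from those at higher levels, so the low levels of many genes that rose were not covered. Replicates of a group differed by more than sampling noise in every pair (chi-square per degree of freedom 1.79 to 10.1 within DMSO and ligand).

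Named genes are the 25 largest rises and 15 largest falls among calls whose mean over the 6 libraries reached 1 CPM, whose groups did not overlap and that had a symbol that is not a clone, locus, antisense or pseudogene name, together with KDM2B, BCOR, EZH2 and members of 40 gene lists. The members, lists and rule were chosen with earlier results of these data known. Alternatives were RLE and upper-quartile factors, other filters, the 6 libraries alone, DESeq2 1.42.0, no fold threshold, the column number as a block and each library left out. CpG content was to be read from the RefSeq promoter table. Its coverage of 72.9% led to windows read from hg38 at GENCODE 44 gene starts, which were chosen after seeing the data and cover 99.9% of the tested genes. Counting intervals are exact at 95% and cover counting error only. They are given for genes already called higher with few DMSO counts, which passed the count filter through other groups. Such ratios can be too large and are no support apart from the call. The result of 1 gene list is not reported here.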

Additional observations from a re-analysis of the deposited data

Results flagged for a closer look

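The ligand effect in the present comparison and that at 72 h in the KDM2B table differed by a test of the difference itself, over separate libraries, for 378 genes. Values below are the log2 fold change at 72 h minus that of ligand against DMSO, each with an edgeR adjusted p under 0.05. Dose and time of the present comparison are not given, and the controls are DMSO here and untreated cells there, so time, control and table cannot be told apart.

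Among genes of the integrated stress response list the difference was positive for all 15 called. It was 3.11 for CHAC1, 2.68 for DDIT4, 1.88 for CTH, 1.86 for SESN2, 1.59 for TRIB3 and 1.59 for SLC7A11. It was 1.42 for PSAT1, a serine synthesis gene, 1.38 for PHGDH, another, 1.21 for ATF3, 1.2 for ALDH1L2 and 1.05 for CEBPB. It was 0.95 for MTHFD2, 0.94 for STC2, 0.84 for SLC7A5, an amino acid transporter gene, and 0.73 for ATF4.

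Outside that list the difference was 1.02 for SOCS3 and 0.86 for AIF1L, which rose in both. It was -1.77 for PTPRU and -0.91 for EEF1A2. IL1RL1 fell in both and the difference was -1.39.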

How the results depend on the processing

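The count of 341 called genes for ligand against DMSO was 526 with no fold threshold and ran from 211 to 276 with 1 of the 6 libraries left out. It was 331 with RLE factors, 363 with upper-quartile factors, 395 with no filter, 278 with at least 3 CPM in 3 libraries, a filter added after seeing the data, 244 in the 6 libraries alone and 303 with DESeq2. The ligand effect under GSK343 had 260 calls, 397 with no filter, 228 with DESeq2 and 147 to 351 with a library left out. The difference with and without GSK343 gave 4 calls with no filter and 0 with each other setting, and that with EV cells gave 1 with no filter and 0 otherwise. With a library left out, EV cells gave 196 to 308 calls, the 72 h comparison 1205 to 1626 and its difference from the present one 208 to 392. The cause was not tested. Of the 40 named genes 0 changed direction. Of these, 1 lost the call with DESeq2, 1 with RLE factors, 2 with upper-quartile factors, 2 in the 6 libraries alone and 7 to 12 with a library left out, and 26 were called in every such fit. The labels give no replicate number within a group. With the numbers of the column names as a replicate block, a fit added after seeing the data, 317 genes were called for ligand against DMSO, 306 of them shared with the 341, and 268 under GSK343, and the difference gave 0. Same-numbered DMSO and ligand libraries had correlations of their deviations from the group means of 0.03, 0.06 and -0.10, so the numbers were not taken to pair the libraries, and 2 of the 40 named genes lost the call. Most genes that rose had low counts, where the precision is least. Protein loss, dose, time and separate cultures are not given.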
